A study of Rattus norvegicus with 4 samples.

Results

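The genes described are those of plasminogen activation and of tissue factor-driven coagulation, measured in cultured rat aortic smooth muscle cells treated with PDGF-BB, the BB form of platelet-derived growth factor and a mitogen of such cells. They are 9 listed genes: the urokinase-type plasminogen activator gene Plau, its receptor gene Plaur, the tissue-type plasminogen activator gene Plat, the inhibitor genes Serpine2 and Serpinb2, the tissue factor gene F3, the tissue factor pathway inhibitor genes Tfpi and Tfpi2, and the thrombomodulin gene Thbd. All probe sets annotated to exactly 1 gene symbol, that symbol being one of these, were taken, which gave 14 probe sets for 9 of the 12922 genes on the array. The PDGF-BB group consisted of 2 arrays from cells treated with 30 ng/mL PDGF-BB for 3 h. The vehicle group consisted of 2 arrays from cells treated for 3 h with the solvent, 0.2% bovine serum albumin in 10 mM acetic acid. All cells had been plated at 10000 cells per cm2, grown for 24 h with 10% serum and then kept for 72 h without serum and insulin. The study asked which genes respond early as these cells change phenotype. The labels do not state whether the replicate arrays stem from different cultures. All p-values thus reflect only how far these arrays differ, a spread that may be technical.

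Plasminogen activation is the step in which urokinase or tissue-type plasminogen activator cuts plasminogen into plasmin, a protease that dissolves fibrin and degrades extracellular matrix. Urokinase works at the cell surface while bound to its receptor, and serpins such as protease nexin-1 (Serpine2) and plasminogen activator inhibitor type 2 (Serpinb2) block the activators. Tissue factor is the cell-surface protein that starts coagulation together with factor VIIa. Tfpi shuts that complex off, and thrombomodulin binds thrombin and turns it towards activating the anticoagulant protein C. In the artery wall these proteins take part in clot formation on exposed smooth muscle and in the migration of smooth muscle cells.

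Levels are given as linear intensities per probe set. Changes are log2 fold changes of intensity + 16, PDGF-BB minus vehicle, and a gene is called higher or lower at an adjusted p under 0.05 by limma over 23707 probe sets. To judge background, 27 Bacillus control probe sets were used, whose highest intensity, 80.3, is called the yardstick below. The median intensity was 132 and 144 on the PDGF-BB arrays and 145 and 148 on the vehicle arrays, and precision is limited by having so few arrays. All 8 smooth muscle markers measured were above the yardstick in at least 1 group. By limma 4 of the 8 were lower (50%, against 15.3% of all genes), with log2 fold changes of -1.70 for Lmod1, -0.79 for Smtn, -0.70 for Myh11 and -0.49 for Mylk. The other 4 were not called, with 0.26 for Cnn1, 0.17 for Des, 0.02 for Tagln and -0.10 for Acta2, so the list did not fall as a whole. The part of these markers in the results below was not tested. Of other cell types, 5 of 7 endothelial, 6 of 8 macrophage or leukocyte and 2 of 6 fibroblast markers did not exceed it in the mean of either group. Because the RNA came from a whole culture, more RNA per cell and more cells with that RNA cannot be told apart.

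The promoter windows of Plaur, Serpinb2 and Serpine2 are shown because these genes were among those that rose and RefSeq sequences were at hand for them. Each window runs from 250 bases before to 50 after the annotated transcript start in the GRCr8 build, on the gene's strand: chr1:89181113-89181412 (+) for Plaur, chr13:24055771-24056070 (+) for Serpinb2 and chr9:88637153-88637452 (-) for Serpine2. Capitals mark AP-1 (TGANTCA, N being any base), EGR (GCGNGGGCG) and GC box (GGGCGGG) matches.
Plaur: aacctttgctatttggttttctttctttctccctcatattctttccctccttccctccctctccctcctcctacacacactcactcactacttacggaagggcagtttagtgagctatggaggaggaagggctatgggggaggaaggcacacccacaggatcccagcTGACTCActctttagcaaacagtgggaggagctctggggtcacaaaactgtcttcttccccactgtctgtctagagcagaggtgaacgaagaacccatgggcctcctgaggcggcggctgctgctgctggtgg
Serpinb2: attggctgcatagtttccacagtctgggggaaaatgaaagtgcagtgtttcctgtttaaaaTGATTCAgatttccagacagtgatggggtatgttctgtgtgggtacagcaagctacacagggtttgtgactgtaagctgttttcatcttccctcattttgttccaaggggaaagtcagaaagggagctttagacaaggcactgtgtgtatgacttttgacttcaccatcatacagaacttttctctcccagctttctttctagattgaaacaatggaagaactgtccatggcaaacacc
Serpine2: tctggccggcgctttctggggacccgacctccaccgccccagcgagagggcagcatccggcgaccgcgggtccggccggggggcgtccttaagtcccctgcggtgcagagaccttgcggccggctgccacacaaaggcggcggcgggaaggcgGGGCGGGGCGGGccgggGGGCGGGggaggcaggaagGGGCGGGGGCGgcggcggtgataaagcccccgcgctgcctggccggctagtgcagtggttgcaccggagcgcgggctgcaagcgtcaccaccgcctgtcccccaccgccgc
The capitals in Plaur and Serpinb2 are 1 AP-1 match each, and those in Serpine2 are 4 GC boxes and 1 EGR match. The first and second GC box overlap, as do the last GC box and the EGR match.

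The activator and receptor genes split into a pair that rose and 1 gene near background. Plaur, the urokinase receptor, had intensities of 3390 and 3706 on the PDGF-BB arrays, against 101 and 120 on the vehicle arrays, by the brighter of its 2 probe sets (1387269_s_at). The groups lay far apart, and the means were 3548 ± 224 with PDGF-BB and 110 ± 13.01 with vehicle (SD, n = 2). With limma, Plaur rose by 4.82 on the log2 scale (SE 0.12, adjusted p 0.000433), 28.2-fold, which ranked 16 from the top among all 12922 genes. The s in the name of this probe set means that its probes may also detect RNA of other genes. The other Plaur probe set (1371286_at) stayed below the yardstick on all 4 arrays, with 49.1 and 58.5 with PDGF-BB and 46.9 and 38.3 with vehicle, and was not called (0.25, 95% interval -0.09 to 0.60, limma adjusted p 0.236). The rise of Plaur therefore rests on 1 of its 2 probe sets.

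Plat, the tissue-type activator, was measured by 1 probe set. It had 5496 and 5209 on the PDGF-BB arrays, against 683 and 703 on the vehicle arrays, and the 2 arrays of each group were close to each other. With limma, Plat rose by 2.92 on the log2 scale (SE 0.09, adjusted p 0.000611), which corresponded to 7.57-fold and ranked 80 from the top. Plau, the urokinase gene itself, was at or below 13 on all 4 arrays in both of its probe sets, under the yardstick of 80.3. One of them (1398287_at) had 8.73 and 13 with PDGF-BB and 1.33 and 8.39 with vehicle (0.38, 95% interval -0.16 to 0.92, limma adjusted p 0.253). The other (1387675_at) had 3.91 and 3.22 with PDGF-BB and 3.29 and 11.1 with vehicle (-0.22, 95% interval -0.72 to 0.27, limma adjusted p 0.452), and its sign turned to 0.02 without vehicle replicate 2. The 2 Plau probe sets thus pointed in opposite directions, neither of them called, at levels where the array gives little information.

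Both serpin genes rose. Serpinb2, which encodes an inhibitor of urokinase and tissue-type activator that is largely kept inside cells, had 948 and 892 on the PDGF-BB arrays, against 7.96 and 3.93 on the vehicle arrays. The vehicle values were below the yardstick, so a lower bound is given first: the mean of the PDGF-BB arrays was at least 11.45-fold higher, with the vehicle arrays taken at 80.3. The fitted increase was 5.42 on the log2 scale (SE 0.13, adjusted p 0.000433 by limma) and was 7.11 with an offset of 1 and 3.82 with an offset of 64. Serpine2, protease nexin-1, a secreted inhibitor of thrombin and of plasminogen activators, had 218 and 193 with PDGF-BB, against 73.2 and 83.9 with vehicle. Its groups did not overlap, and the vehicle values lay around the yardstick. By limma the increase was 1.23 on the log2 scale (SE 0.11, adjusted p 0.00505), 2.35-fold.

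**Figure D1:**
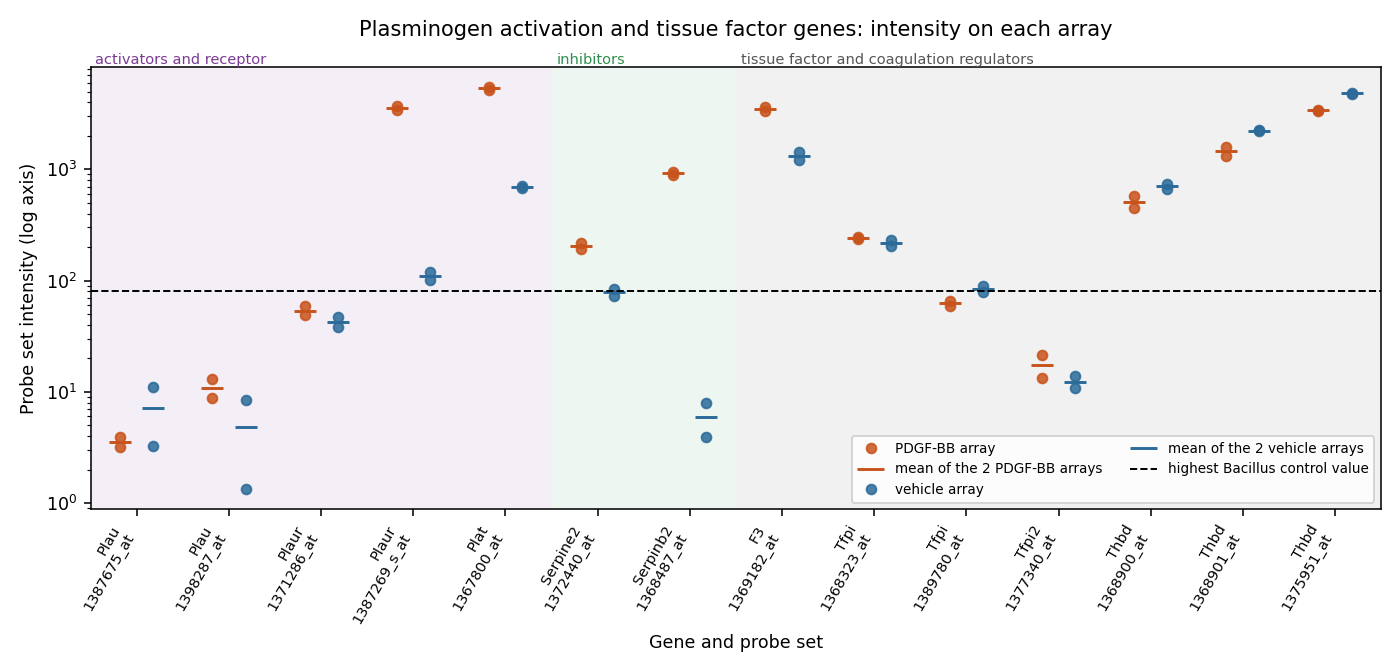
Probe set intensity (log axis) of the 9 genes on each array, PDGF-BB left of vehicle for each probe set, with short lines at the means of 2 arrays and a dashed line at the highest Bacillus control value, 80.3. PDGF-BB arrays sit far above vehicle arrays for 1 Plaur probe set, Plat and Serpinb2, while Plau and Tfpi2 stay under the dashed line in both groups; distances between different probe sets do not compare levels of genes.

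Tissue factor rose as well. F3 had 3338 and 3655 on the PDGF-BB arrays, against 1218 and 1426 on the vehicle arrays. Vehicle replicates differed more from each other here than for Plat, but the groups were well separated. The means were 3497 ± 224 with PDGF-BB and 1322 ± 147 with vehicle (SD, n = 2). By limma this was an increase of 1.40 on the log2 scale (SE 0.12, adjusted p 0.00442) or 2.63-fold, which ranked 347 from the top.

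Of the 3 other genes listed with tissue factor, Tfpi, Tfpi2 and Thbd, none was called higher. Serpine2, grouped here with the inhibitors of plasminogen activators, also inhibits thrombin and rose. Thbd, thrombomodulin, was lower with PDGF-BB in all 3 of its probe sets, of which 2 were called. The brightest (1375951_at) had 3375 and 3442 with PDGF-BB, against 4852 and 4767 with vehicle (-0.50, SE 0.09, limma adjusted p 0.0208). The second (1368901_at) had 1599 and 1326 with PDGF-BB, against 2243 and 2199 with vehicle (-0.60, SE 0.12, limma adjusted p 0.0327). The dimmest (1368900_at) had 570 and 452 with PDGF-BB, against 668 and 743 with vehicle, and missed the threshold (-0.46, SE 0.15, limma adjusted p 0.0950). None of the 3 probe sets had overlapping groups, but PDGF-BB lay below vehicle without overlap in 33.8% of all probe sets. The decrease was 1.41-fold and 1.52-fold in the 2 Thbd probe sets called.

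The calls of Thbd mostly ended when a single array was left out, which leaves 1 array in a group that is assumed to vary like the other group. For the brightest probe set the limma adjusted p was 0.0568 and 0.0602 without PDGF-BB replicate 1 or 2, 0.166 without vehicle replicate 1 and 0.148 without vehicle replicate 2. The second probe set stayed called without PDGF-BB replicate 1 (0.0377) and had 0.0661 when PDGF-BB replicate 2 was left out, 0.173 without vehicle replicate 1 and 0.156 without vehicle replicate 2. The log2 fold change stayed negative in these fits, from -0.74 to -0.30 over the 3 probe sets. By contrast, the calls of Plaur, Plat, Serpinb2, Serpine2 and F3 held in each fit without 1 array, and the highest limma adjusted p there was 0.0492, for Serpine2.

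Tfpi, the inhibitor of the tissue factor complex, gave opposite signs in its 2 probe sets. The brighter (1368323_at) had 238 and 245 with PDGF-BB, against 206 and 231 with vehicle (0.13, 95% interval -0.13 to 0.40, limma adjusted p 0.400). The dimmer (1389780_at) had 65.5 and 59.2 with PDGF-BB, against 79.5 and 89.0 with vehicle (-0.35, 95% interval -0.63 to -0.08, limma adjusted p 0.0766). Groups did not overlap in either, as held for 63.0% of all probe sets. Neither Tfpi probe set passed, and the second lay around the yardstick. Tfpi2, a Kunitz-type inhibitor of plasmin and other serine proteases, was at 21.5 and 13.3 with PDGF-BB and 10.9 and 13.8 with vehicle, under the yardstick on all arrays and overlapping (0.23, 95% interval -0.19 to 0.64, limma adjusted p 0.362).

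**Figure D2:**
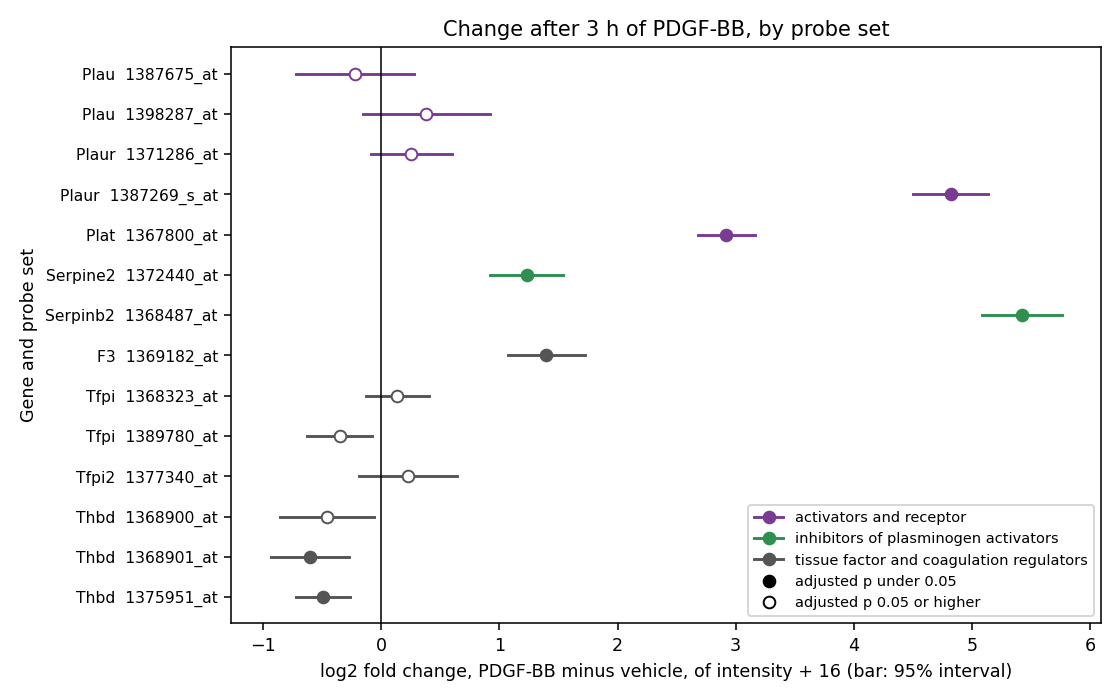
log2 fold change (PDGF-BB minus vehicle, of intensity + 16) of the 14 probe sets, coloured by role, with 95% intervals as bars and filled points where the limma adjusted p was under 0.05. Filled points lie between 1.23 and 5.42 for Plaur, Plat, Serpine2, Serpinb2 and F3, and at -0.60 and -0.50 for Thbd.

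With 1 probe set per gene, the brightest, 5 of the 9 genes were higher, against 12.4% of all genes, and 1 was lower, against 15.3% of all genes; 3 were not called. By probe set, 5 of 14 were higher, against 11.4% of all probe sets, and 2 were lower, against 12.9%. In 12 of the 14 the groups did not overlap, 8 with PDGF-BB above and 4 with PDGF-BB below, while this held for 63.0% of all probe sets, 29.2% above and 33.8% below. The 9 genes were chosen with earlier results of these data known, so these shares describe the list and do not test it. Of the 3 activator and receptor genes 2 rose and 1 was not called, and their median log2 fold change was 2.92. Of the 6 inhibitors and coagulation regulators 3 rose, 1 fell and 2 were not called, with a median of 0.73, against -0.03 over all genes. That second median joins 2 unlike sets, since both serpins rose (median 3.33) while the 4 genes around tissue factor ranged from -0.50 to 1.40. The increases thus ran across the roles: activator, receptor, inhibitors and tissue factor. The genes not called higher were Plau, Tfpi, Tfpi2 and Thbd. Plau and Tfpi2 lay under the yardstick on all arrays, where a change is poorly measured.

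Other genes of these pathways were counted from lists of 40 genes, 33 of which had a probe set with 1 symbol. Of these, 3 were higher and 1 was lower, 9.09% and 3.03% of the 33, so neither share exceeded that of all genes. Many encode plasma proteins made in the liver, and 19 of the 33 had means at or below the yardstick in both groups.

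Among 12 other genes of the plasminogen system, 2 rose (16.7%, against 12.4% of all genes), 1 fell (8.33%, against 15.3%) and 9 were not called. The pair that rose encodes the annexin A2 and S100A10 complex, a cell-surface docking site for plasminogen and tissue-type activator. S100a10 had 9327 and 9183 with PDGF-BB, against 2412 and 2447 with vehicle, which limma fitted as 1.92 on the log2 scale (SE 0.08, adjusted p 0.000992) or 3.79-fold. Anxa2 had 13035 and 12318 with PDGF-BB, against 8935 and 9196 with vehicle, a smaller increase of 0.48 on the log2 scale (SE 0.09, adjusted p 0.0254 by limma). The call of S100a10 held in each fit without 1 array. That of Anxa2 ended in all 4, with limma adjusted p-values of 0.0646 and 0.0599 without PDGF-BB replicate 1 or 2, and 0.184 and 0.156 without vehicle replicate 1 or 2.

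Vldlr and Lrp1, endocytic receptors that clear activator and inhibitor complexes, are on the same list. Vldlr had 3596 and 3737 with PDGF-BB, against 4881 and 4984 with vehicle (-0.43, SE 0.09, limma adjusted p 0.0321), and its other probe sets were lower as well (-0.49 and -0.46). That call ended without any 1 array: the limma adjusted p was 0.0723 and 0.0696 without PDGF-BB replicate 1 or 2, and 0.194 and 0.208 without vehicle replicate 1 or 2. Lrp1 had 1425 and 1124 with PDGF-BB and 1404 and 1171 with vehicle, overlapping groups with a log2 fold change of -0.02 (95% interval -0.46 to 0.43), a sign that depended on the scaling (0.06 with array medians subtracted).

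In the coagulation list, 1 of 17 genes was higher (5.88%, against 12.4% of all genes) and 16 were not called. Gas6 is among those not called by its brightest probe set (-0.19, limma adjusted p 0.190). Another of its 3 probe sets (1369735_at) was called lower (-0.46, limma adjusted p 0.0422), and the third was not called (-0.24, limma adjusted p 0.120). The one that rose was Procr, the endothelial protein C receptor, which presents protein C to the thrombin and thrombomodulin complex. It had 5590 and 5331 with PDGF-BB, against 162 and 164 with vehicle, so each group was tight and the gap wide. The increase of 4.93 on the log2 scale (SE 0.09, adjusted p 0.000433 by limma) corresponded to 30.6-fold and ranked 13 from the top, close to Plaur. The 2 receptors of the protein C system therefore moved in opposite directions, Procr 30.6-fold higher and Thbd 1.41-fold lower by its brightest probe set, a call that ended without any 1 array. Over the endothelial markers, the summed intensity was 924 and 886 with PDGF-BB and 869 and 912 with vehicle. Most of this sum came from the 2 Egfl7 probe sets and Esam, so it says little about the other markers. Pecam1, Tie1, Emcn, Nos3 and Kdr were below the yardstick on all arrays, and none of them was called. Kdr and Nos3 had PDGF-BB above vehicle without overlap, Tie1 had it below, and Pecam1 and Emcn overlapped. Groups did not overlap in 63.0% of all probe sets. Egfl7 and Esam were above the yardstick on all arrays. Egfl7 had PDGF-BB above vehicle in both of its probe sets, neither called. The brighter had 373 and 338 with PDGF-BB, against 298 and 307 with vehicle (0.22, limma adjusted p 0.181). Of the 7 endothelial markers measured, 1 was called, and it was lower (14.3%, against 15.3% of all genes). This was Esam (-0.47, SE 0.09, limma adjusted p 0.0249), which is named after its value was seen.

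By limma 0 of the 4 receptor genes for thrombin and related proteases were called, and 1 of the 4, F2rl1, had an unadjusted p under 0.05. F2rl1 had 189 and 209 with PDGF-BB, against 150 and 163 with vehicle (0.32, 95% interval 0.04 to 0.59, limma adjusted p 0.0963). F2r, the main thrombin receptor of smooth muscle, had 5223 and 5346 with PDGF-BB, against 4592 and 4503 with vehicle. Its groups did not overlap, but the change of 0.22 (95% interval -0.01 to 0.44, limma adjusted p 0.149) did not pass. It passed with an intensity trend in the variance prior (limma adjusted p 0.00383), and the change was 0.05 with quantile normalization.

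**Figure D3:**
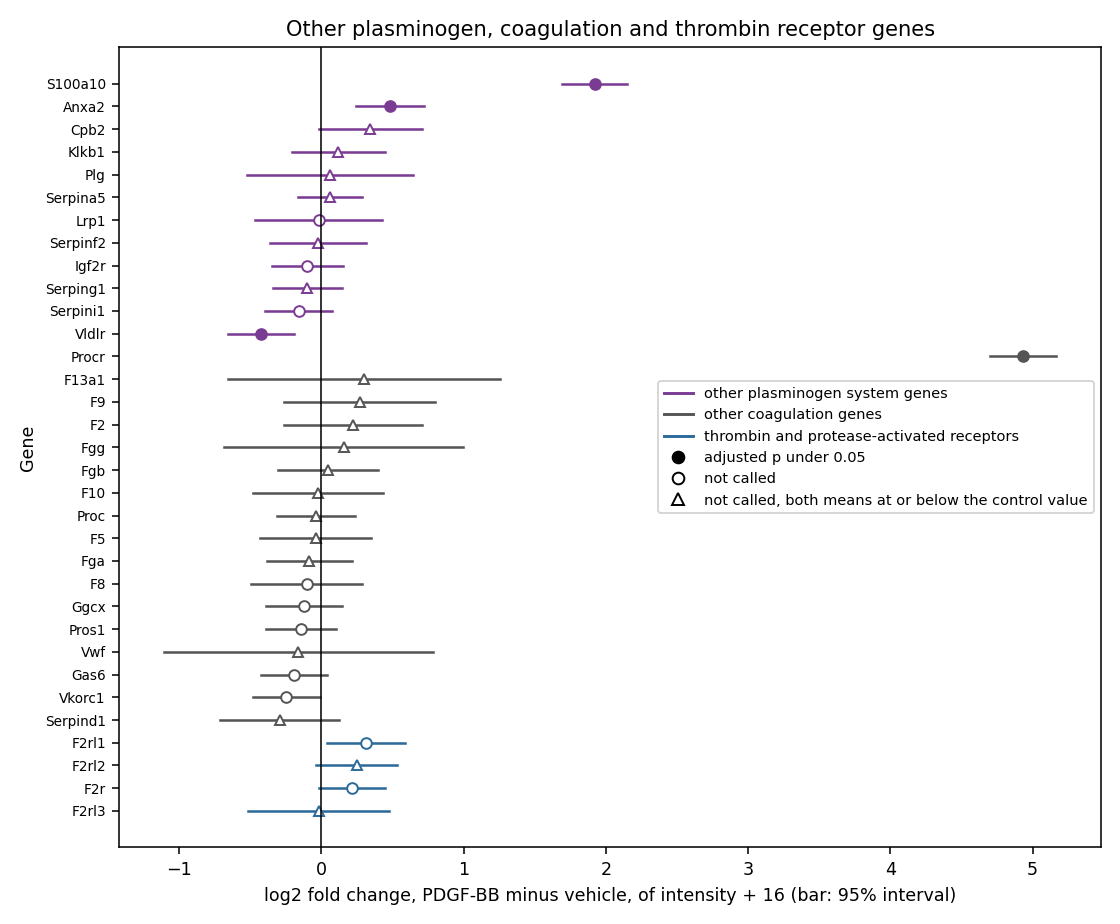
log2 fold change (PDGF-BB minus vehicle, of intensity + 16) of 33 other genes of the 2 pathways, 1 probe set per gene, with 95% intervals as bars, filled points where called and triangles where both group means were at or below 80.3. Procr at 4.93 and S100a10 at 1.92 stand apart, and most other intervals include 0.

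Of the 9 genes, 6 had promoter windows, Plaur, Serpinb2, Serpine2, Plau, Tfpi and Tfpi2, with 2 starts for Tfpi. They were searched on both strands for AP-1, EGR and GC box letters as above, CRE (TGACGNCA), ETS (CCGGAAG), E-box (CACGTG), and the CArG box and kappaB motifs by name. AP-1 is the binding motif of Fos and Jun proteins, and Plaur had 1 match 83 to 77 bases before the start and Serpinb2 1 match 189 to 183 bases before it. Tfpi2, near background in both groups, also had 1, 80 to 74 bases before the start. AP-1 matches occurred in 7.33% of all 33469 windows. Among the called genes outside the 9, Procr and Anxa2 each had 1 AP-1 match, and Procr also had 1 GC box. S100a10 had no window, and Vldlr was not searched. Serpine2 had 4 GC boxes and 1 EGR match, in a window of 77.0% GC against a median of 51.7%, and Plau had 2 GC boxes. GC boxes occurred in 22.7% and EGR matches in 4.98% of all windows. Tfpi had 1 E-box in 1 of its windows, and Tfpi2 had 1 kappaB match, motifs found in 6.42% and 7.51% of all windows. No window of the 9 genes held a CRE, ETS or CArG box match, which says only that these letters are not in these stretches; the shares of all windows were 3.09%, 8.75% and 1.64%.

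**Figure D4:**
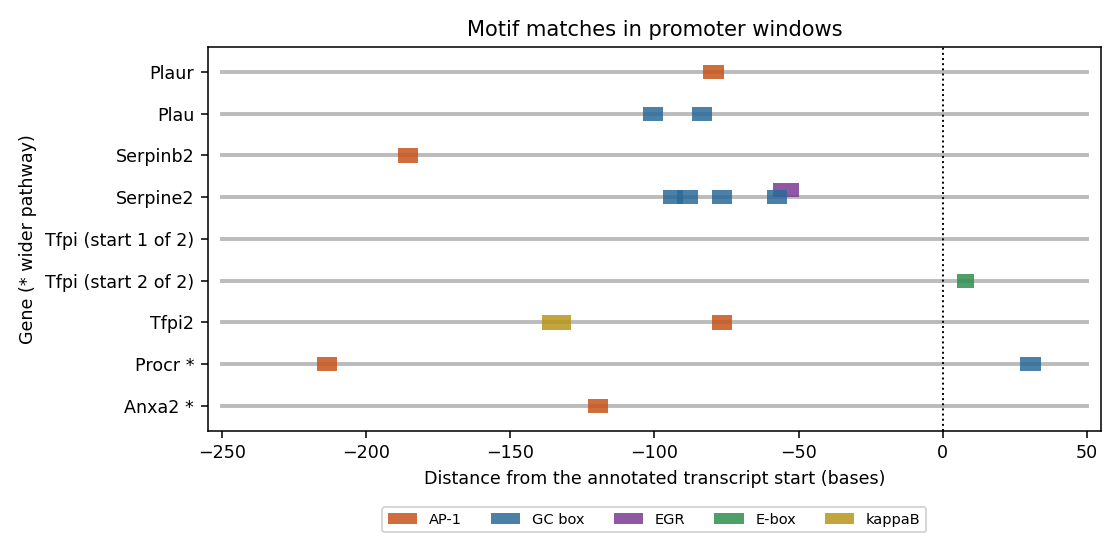
Motif matches in the promoter windows of 6 of the genes and of Procr and Anxa2, drawn to scale from 250 bases before to 50 after the annotated transcript start (dotted line). AP-1 matches appear in Plaur, Serpinb2, Tfpi2, Procr and Anxa2, and the GC boxes of Serpine2 lie side by side; a match is a description and not a measured binding site.

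The genes whose pattern over the 4 arrays was nearest to that of Plaur and Plat were found by Euclidean distance of log2 values minus the vehicle mean. For Plaur they were Rgs2 (distance 0.18), a regulator of G-protein signalling, Il1rl1 (0.21), the interleukin-33 receptor, and C9h6orf141 (0.23), with log2 fold changes of 4.93, 4.68 and 4.70. For Plat they were the transcription factor gene Klf4 (0.05), the receptor feedback inhibitor gene Spry2 (0.11) and the scramblase gene Plscr1 (0.12), with log2 fold changes of 2.94, 2.88 and 3.01. With 4 arrays in 2 groups, this distance mostly ranks genes by a like size of change.

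**Figure D5:**
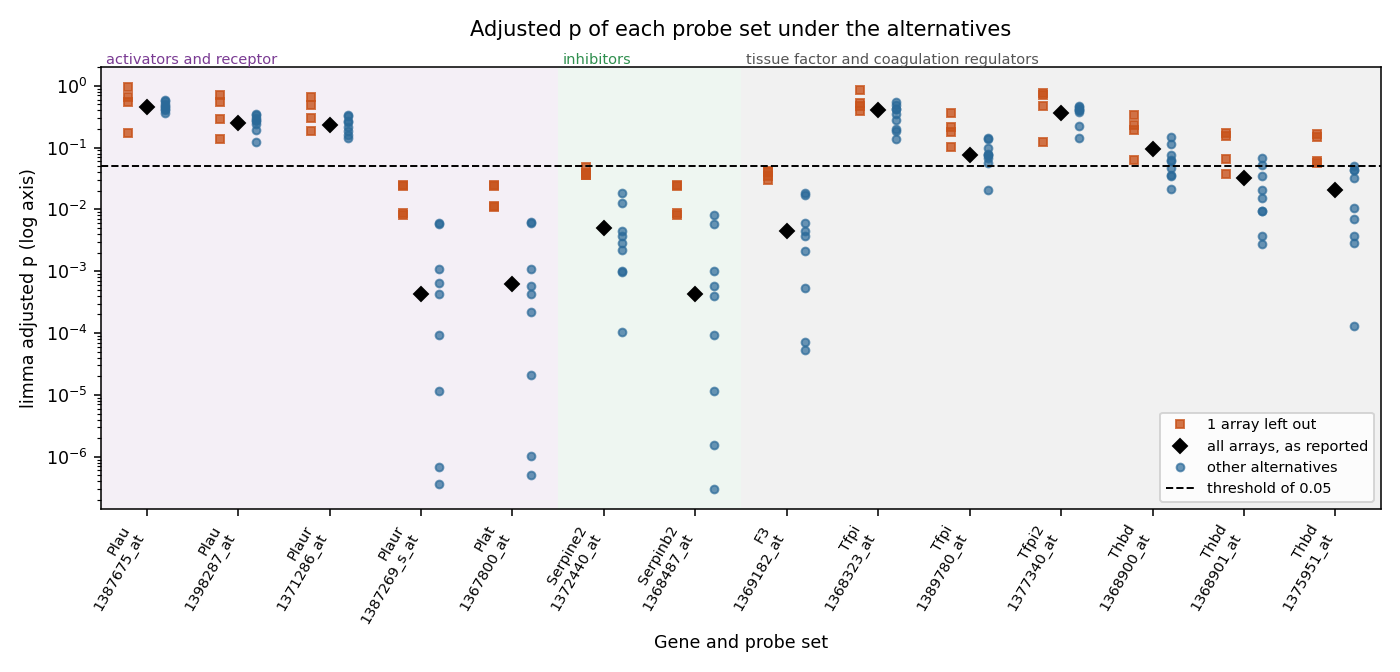
limma adjusted p (log axis) of the 14 probe sets with all arrays (diamonds), with 1 array left out (squares) and under the other alternatives (circles), with a dashed line at 0.05. Plaur (1387269_s_at), Plat, Serpine2, Serpinb2 and F3 stay under the line throughout, and the Thbd probe sets lie on both sides of it.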

How the data were processed

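RNA of rat aortic smooth muscle cells was hybridised as biotin-labelled cRNA to Affymetrix arrays, per the labels' protocols, with 2 arrays per group, grouped by sample title. The authors' deposited table holds linear intensities, 1 per probe set and array. How the authors corrected background and scaled arrays, and with which software, is not given in the sources used here, and neither are detection calls or scan dates. From these, log2(intensity + 16) was computed without further scaling, which understates changes of dim genes. Of 23764 probe sets, 57 controls were left out and 23707 fitted in R 4.3.3 by limma 3.58.1 (lmFit, eBayes). Tests were two-sided at a threshold of 0.05 after adjustment by Benjamini and Hochberg's method. Intervals are 95% and use 4.40 degrees of freedom. The procedure was tested on simulated data.

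A platform annotation of 2016 named 1 gene for 17279 probe sets, while 373 had several symbols and 6055 are unnamed here, and all 9 symbols are current in RefSeq. A gene was represented by its probe set with the highest mean intensity. Named genes are the 9, up to 4 called genes per further list, and Anxa2, S100a10, Lrp1, F2r and Procr; a further gene fixed by name is not reported here. The 9 genes, the lists and the tests were chosen with earlier results of these data known. Alternatives were offsets of 1 and 64, 3 scalings, a filter on dim probe sets, an intensity trend, leaving out each array, the replicate block and other gene summaries. Replicate numbers are shared by the groups, but no label ties them. The same-numbered deviations correlated at -0.10 over all probe sets and -0.14 over those with a mean above 80.3, so the numbers were not taken as pairs. Promoter windows are from RefSeq, build GRCr8.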

Additional observations from a re-analysis of the deposited data

How the results depend on the processing

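The calls of Plaur (1387269_s_at), Plat, Serpinb2, Serpine2 and F3 held under all 13 alternatives tried for each. Accordingly 5 genes and 5 probe sets of the 9 genes were higher in every fit. The call of Thbd was less stable. The count of genes of the 9 called lower was 1 with all arrays and 0 with the replicate block and in each fit without 1 array, where 1 had an unadjusted limma p under 0.05. Under the replicate block the brightest Thbd probe set had a limma adjusted p of 0.0511. The 2 Thbd probe sets called lower became 1 with an offset of 1, 1 with the replicate block, 0 to 1 without 1 array, and 4 probe sets of the 9 genes were lower with dim probe sets left out, where Tfpi (1389780_at) and the third Thbd probe set joined and fewer probe sets were tested. There were 3 with an offset of 64, quantile normalization and the intensity trend, where the third Thbd probe set (1368900_at) passed with limma adjusted p-values of 0.0462, 0.0343 and 0.0360. With the numbers crossed, a setting chosen after seeing the data, 1 was lower.

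Over all probe sets, fits without 1 array called 781 to 1709 higher, against 2712 with all, and 491 to 2514 lower, against 3067. Of the 33 further pathway genes the 3 called higher became 2 with an offset of 1, the replicate block and 3 of the fits without 1 array, and 4 with dim probe sets left out and the intensity trend. The 1 called lower became 2 with an offset of 64, with the median of a gene's probe sets or with the smallest p of them, and 3 with quantile normalization, cyclic loess or an intensity trend. It became 0 with an offset of 1, array medians subtracted, the replicate block, the crossed block and each fit without 1 array, where 0 to 2 genes had an unadjusted limma p under 0.05. Signs of uncalled genes turned in a few settings. Plau (1387675_at) ranged from -0.469 to 0.0202 without 1 array. Lrp1 ranged from -0.19 to 0.15 without 1 array and was 0.0582 with array medians subtracted. The causes were not tested. The scalings moved the median change of all probe sets by less than 0.1. Depth is limited by signal over background: 4 of the 14 probe sets had both means at or below 80.3.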

Other observations

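Disagreement in calls between probe sets of a gene was common in these data, but a gap as wide as that of Plaur was not. The log2 fold changes of its 2 probe sets lay 4.57 apart, against a median gap of 0.25. That gap ranked 2 from the widest among the genes with several probe sets. Of 3256 genes with several probe sets, 1264 had at least 1 called by limma, and in 818 of these (64.7%) some but not all were called, or calls went both ways, the last in 10 genes. The uncalled Plaur probe set (1371286_at) was below the highest Bacillus control value on all 4 arrays, so its change and that of the called probe set do not give a measured difference between them.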
